A study of Bos taurus with 6 samples.

Results

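The circadian clock genes studied here are 10 genes of the daily transcription loop, BHLHE40, BHLHE41, PER1, PER2, PER3, CRY1, CRY2, BMAL1, CLOCK and NR1D1. Members were taken as every probe set, the group of probes that reads a transcript, whose single annotated gene symbol was on this list. This rule found 6 of the 24016 probe sets tested, for 4 of the 10 genes. BHLHE40 and PER2 had 2 probe sets each, and NR1D1 and CRY1 had 1 each. The annotation used here gave no probe set to BHLHE41, PER1, PER3, CRY2, BMAL1 or CLOCK, so these 6 genes were not analysed here.

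RNA of articular chondrocytes, the cells of joint cartilage, from 3 cows was hybridised to Affymetrix Bovine Genome arrays. The cells were kept as micromass cultures, in which they are plated as dense drops and lay down matrix. There were 3 arrays of cultures that had received TGF-β1 at 5 ng/ml for 8 hours and 3 arrays of untreated cultures, which according to the treatment notes had received vehicle. All cultures came from cells released from full-thickness cartilage and held in low-serum medium, and both groups hold replicates numbered 1 to 3. All samples were taken at 1 time after treatment, so a level here is a single point in any daily rhythm, and whether the cultures were in rhythm was not measured.

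In the core of the clock, the factors CLOCK and BMAL1 bind E-box sequences and switch on the PER and CRY genes, whose proteins then return to the nucleus and block CLOCK and BMAL1. NR1D1 (REV-ERBα), also switched on through E-boxes, represses BMAL1 and forms a further loop. BHLHE40 (DEC1) and BHLHE41 (DEC2) encode repressors that compete at E-boxes. BHLHE40 is in addition known to respond to hypoxia, serum and TGF-β. Cartilage has its own clock, which in mice controls part of the chondrocyte transcriptome.

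BHLHE40 rose with TGF-β1 and was the only clock gene measured here that passed the test. PER2, NR1D1 and CRY1 did not pass. In these 3 genes, replicate 3 differed more from the mean of replicates 1 and 2 than TGF-β1 differed from untreated in any replicate. Between replicates 1 and 2 this did not hold throughout. In such bulk samples, fewer cells with a transcript and less of it per cell cannot be told apart. The values are log2 signals from which the probe set's own median of the 6 arrays has been taken off, so they compare arrays and do not give a level that could be set against that of another gene. A gene is said to have risen or fallen where limma's paired fit, which includes the replicate number, gave a Benjamini-Hochberg adjusted p under 0.05 over all 24016 probe sets.

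The array facts that touch these results are as follows. Both replicate 3 arrays stood apart from the other 4 on the leading principal component (56.4% of the variance). All 11 probe sets of 8 cell cycle genes were higher in both replicate 3 arrays than in the other 4, as 16.5% of all probe sets were. These genes were listed because earlier results of these data put them high in replicate 3. Spike-in controls were bright on the array of TGF-β1 replicate 2, where their median was 1.57 log2 units, and lay between -0.16 and 0.05 elsewhere. Chondrocyte markers could not be checked for their level, which the centring removes. Over all probe sets, 2.44% were called higher and 3.46% lower. Of 25 probe sets for 9 chondrocyte markers, 4 rose (both of COMP and 2 of 4 of PRG4) and 5 fell (the single one of CNMD and 4 of 7 of COL11A1). Of 32 probe sets for markers of other cell types (endothelium, leukocytes, fibroblasts, muscle and pericytes, adipocytes), 0 rose and 1, for the adipocyte gene FABP4, fell. Of 10 listed TGF-β target genes, 7 were measured and each rose in at least 1 probe set, with 8 of 10 probe sets higher and 0 lower. TGFBI (3.39 log2 units), PMEPA1 (2.32), INHBA (2.38) and PTHLH (2.04) had the smallest p.

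BHLHE40, the E-box repressor, was read by 2 probe sets, called a and b here and in the plots, which give their identifiers. On probe set a the centred log2 signals were 0.99, 0.24 and 0.37 in TGF-β1 replicates 1, 2 and 3, against -0.24, -0.34 and -1.33 in untreated replicates 1, 2 and 3. On probe set b they were 0.50, 0.38 and 0.09 with TGF-β1, against -0.39, -0.09 and -1.51 in untreated cultures. On both probe sets every TGF-β1 array lay above every untreated array, and the untreated array of replicate 3 was the lowest by a wide margin. Over all probe sets, 6.11% had all 3 TGF-β1 arrays above all 3 untreated arrays and 4.91% had them all below.

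The means of probe set a were 0.53 ± 0.40 with TGF-β1 and -0.64 ± 0.60 in untreated cultures (SD, n = 3 each), a difference of 1.17 log2 units or 2.25-fold (SE 0.19, 95% interval 0.75 to 1.60, limma adjusted p = 0.00938). The means of probe set b were 0.32 ± 0.21 and -0.66 ± 0.75 (TGF-β1 and untreated, SD, n = 3 each), a difference of 0.99 log2 units or 1.98-fold (SE 0.19, 95% interval 0.56 to 1.42, limma adjusted p = 0.0194). Among the 24016 probe sets, these were the 114th and 164th largest increases. The 2 BHLHE40 probe sets were the only ones of the 6 clock probe sets called higher, and 0 were called lower, where over all probe sets 2.44% were called higher and 3.46% lower.

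**Figure D1:**
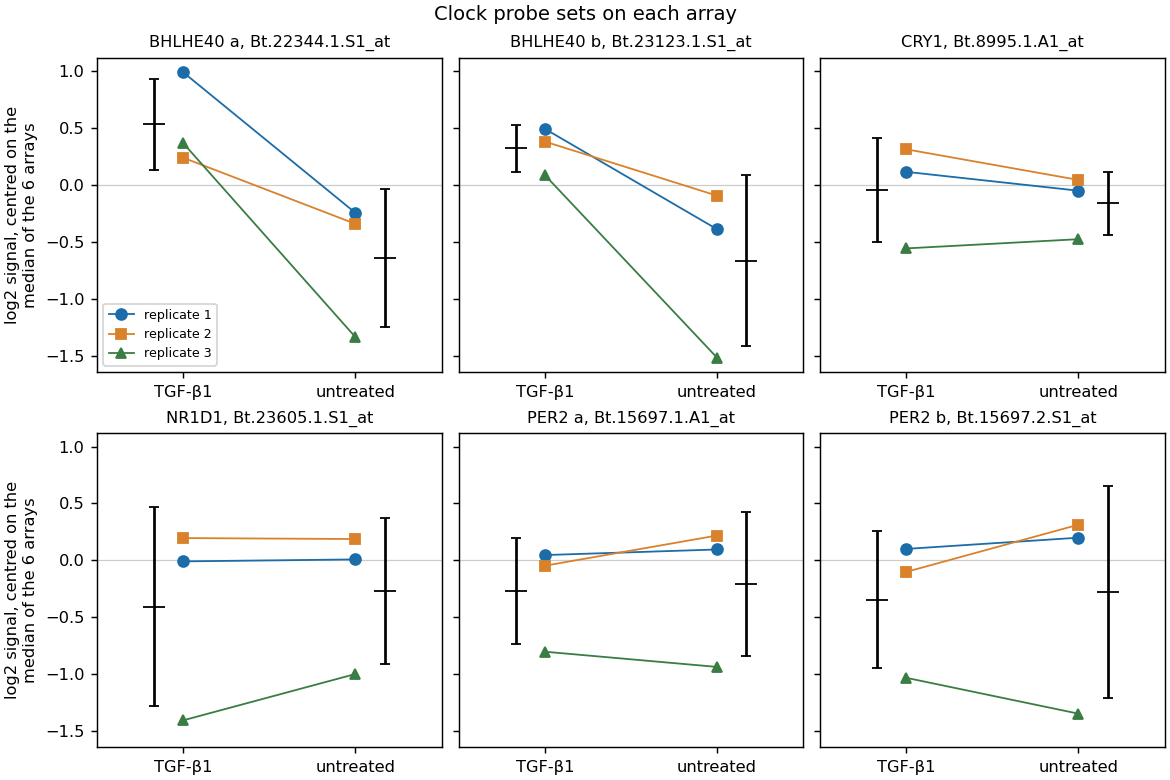
Centred log2 signal (y axis) of the 6 clock probe sets in TGF-β1 (left) and untreated (right) cultures, with a line joining arrays of the same replicate and bars giving the mean and SD of each group (n = 3). In BHLHE40 the TGF-β1 end of each line is the higher one, by 0.48 to 1.70 log2 units, while in CRY1, NR1D1 and PER2 replicate 3 lies lowest in both groups and the ends of a line differ by -0.41 to 0.31.

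The size of the BHLHE40 response varied between replicates in the same order on both probe sets. On probe set a TGF-β1 minus untreated was 1.23, 0.58 and 1.70 log2 units in replicates 1, 2 and 3. On probe set b it was 0.88, 0.48 and 1.60. Replicate 3, in which untreated BHLHE40 was lowest, had the largest difference, and replicate 2 the smallest. Without replicate 3 the differences were 0.91 and 0.68 log2 units, and both probe sets still passed the test (adjusted p = 0.00680 and 0.0223). The standard error from the 3 pair differences alone was 0.33 on both probe sets, larger than limma's 0.19, which borrows the spread of all probe sets.

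The call was lost without the pairing, and a paired test without limma's borrowed spread was not run. On the groups alone, without the replicate number, the differences are the same but limma's adjusted p was 0.650 and 0.815, and 0 of all probe sets passed (1377, or 5.73%, had an unadjusted p under 0.05). The methods' unequal-variance test also put 0 probe sets past the adjusted threshold (1032, or 4.3%, at an unadjusted p under 0.05). In that test neither BHLHE40 probe set was among these 1032 (unadjusted p = 0.0572 on a and 0.142 on b).

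**Figure D2:**
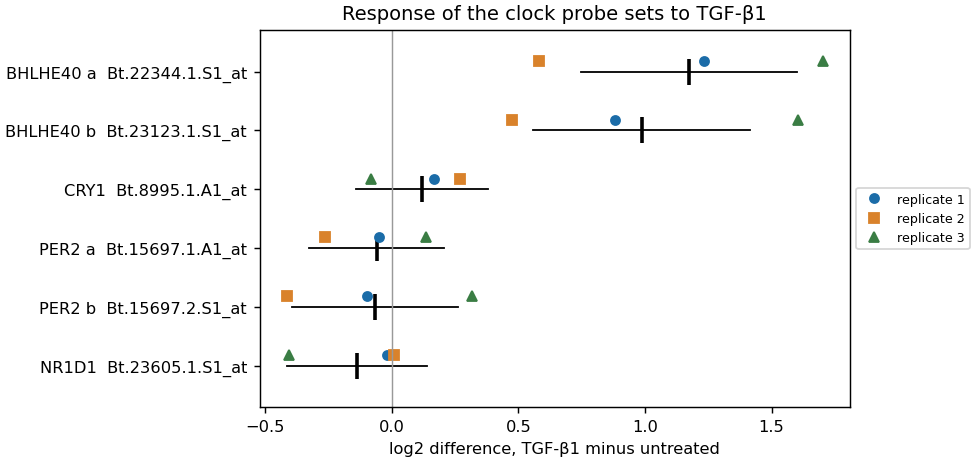
Log2 difference, TGF-β1 minus untreated (x axis), of the 6 clock probe sets in each of the 3 replicates (coloured symbols), with limma's estimate (black tick) and its 95% interval (line). The intervals of both BHLHE40 probe sets lie above 0, and those of CRY1, PER2 and NR1D1 include 0.

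PER2, whose protein forms the repressor complex of the clock with CRY proteins, did not pass the test on either probe set. On its probe set a the signals were 0.05, -0.05 and -0.80 in TGF-β1 replicates 1, 2 and 3, against 0.10, 0.22 and -0.94 in untreated replicates 1, 2 and 3. On its probe set b they were 0.10, -0.10 and -1.03 with TGF-β1, against 0.20, 0.31 and -1.35 in untreated cultures. The groups overlapped, and within each group replicate 3 was far below the other two replicates. The differences were -0.06 log2 units (95% interval -0.33 to 0.21, limma adjusted p = 0.849) and -0.07 log2 units (95% interval -0.40 to 0.26, adjusted p = 0.866). Both probe sets were lower with TGF-β1 in replicates 1 and 2 and higher in replicate 3, so that without replicate 2 the sign turned, to 0.042 and 0.11 log2 units.

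NR1D1, the nuclear receptor that represses BMAL1, had signals of -0.01, 0.20 and -1.40 in TGF-β1 replicates 1, 2 and 3, against 0.01, 0.19 and -0.998 in untreated replicates 1, 2 and 3. In replicates 1 and 2 the arrays of a pair were within 0.02 log2 units of each other, and in replicate 3 TGF-β1 was lower by 0.41. The difference was -0.14 log2 units (SE 0.12, 95% interval -0.42 to 0.14, limma adjusted p = 0.615).

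CRY1, the partner of PER proteins in repression, had signals of 0.12, 0.32 and -0.55 in TGF-β1 replicates 1, 2 and 3, against -0.05, 0.05 and -0.47 in untreated replicates 1, 2 and 3. TGF-β1 was above untreated in replicates 1 and 2 and below it in replicate 3, and the groups overlapped. The difference was 0.12 log2 units (SE 0.11, 95% interval -0.14 to 0.38, limma adjusted p = 0.660). Taken as a range, the intervals of PER2, NR1D1 and CRY1 ran from -0.42 to 0.38 log2 units, below the lower bounds of BHLHE40, which were 0.75 and 0.56. These intervals rest on limma's borrowed spread, and the standard error from the 3 pairs alone was 0.33 on both BHLHE40 probe sets. The difference between genes was not tested.

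Replicate 3 stood apart from replicates 1 and 2 in these genes, less so for BHLHE40 with TGF-β1. Replicate 3 lay below the mean of replicates 1 and 2 for all 6 clock probe sets in both groups. For NR1D1 the gap was -1.50 log2 units with TGF-β1 and -1.10 in untreated cultures. For PER2 it was -0.80 and -1.03 with TGF-β1 and -1.09 and -1.60 in untreated cultures on its probe sets a and b. For CRY1 it was -0.77 with TGF-β1 and -0.47 in untreated cultures. These 4 probe sets, of the 6 clock probe sets, had both replicate 3 arrays below all other arrays, where 17.5% of all probe sets did. For BHLHE40 the gap was unequal, at -0.25 and -0.35 with TGF-β1 and -1.04 and -1.28 in untreated cultures. Replicate 3 was thus closer to the mean of replicates 1 and 2 with TGF-β1 than in untreated cultures. Replicates 1 and 2 differed by at most 0.75 log2 units on any clock probe set, the largest being BHLHE40 on probe set a with TGF-β1, and by at most 0.29 in untreated cultures.

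Other genes moved with replicate 3. The 11 cell cycle probe sets, listed as already known to be high there, were above replicates 1 and 2. Their median gap was 2.83 log2 units with TGF-β1 and 2.55 in untreated cultures. ZBTB16 and FKBP5, which are induced by glucocorticoids, hormones that reset clocks in many tissues, were above replicates 1 and 2 by 3.15 and 1.20 log2 units with TGF-β1 and by 3.51 and 2.04 in untreated cultures. They belong to a list of genes that respond quickly to serum, cyclic AMP or glucocorticoids, measured by 14 probe sets. The median gap of that list was only 0.33 with TGF-β1 and 0.40 in untreated cultures. With TGF-β1 and untreated, other gaps on it were 1.61 and 2.13 for DUSP1 and 0.12 and 0.31 for CRISPLD2. FOS was below on both probe sets (-0.80 and -0.69 with TGF-β1, -0.56 and -0.29 in untreated cultures). Of the list's 14 probe sets, 6 had both replicate 3 arrays above the other 4 and 1 had both below. Over all probe sets these shares were 16.5% and 17.5%. The replicate number may stand for the cow, the culture or the day of work, which cannot be told apart, and the part of these genes in the low clock signals was not tested.

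**Figure D3:**
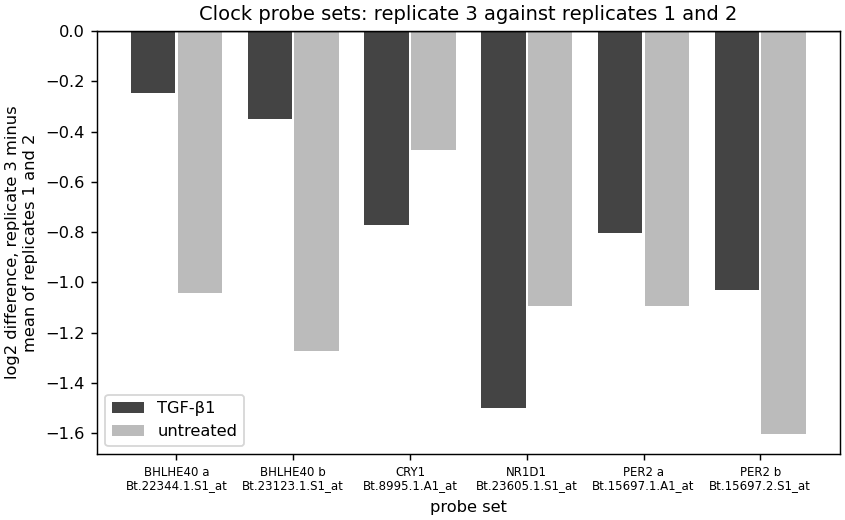
Log2 difference of replicate 3 from the mean of replicates 1 and 2 (y axis) for the 6 clock probe sets, in TGF-β1 (dark bars) and untreated (light bars) cultures, with 1 value a bar and no error. All bars lie below 0, and those of BHLHE40 are -0.25 and -0.35 with TGF-β1, against -1.04 and -1.28 in untreated cultures.

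Genes around the clock core were examined as lists. Of 9 further core factors, RORA, which activates BMAL1, and TIMELESS, which is best known in mammals for DNA replication, were measured by 5 probe sets, and 0 rose or fell. RORA had differences of 0.02, 0.07 and -0.07 log2 units on its 3 probe sets, all with adjusted p of 0.777 or more. The median difference of the list was 0.02 log2 units, against 0.01 over all probe sets.

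Of 16 enzymes that phosphorylate, dephosphorylate or ubiquitinate clock proteins, or remove their ubiquitin, 12 were measured by 25 probe sets. Of these 1 rose, 0 fell and 24 did not pass, where over all probe sets 2.44% rose and 3.46% fell, so that a single call in 25 is near the background. The median difference was 0.02 log2 units. The one that rose was USP2, a deubiquitinase that in mice is itself rhythmic and acts on PER1 and BMAL1. Its signals were 0.32, 0.61 and 0.09 in TGF-β1 replicates 1, 2 and 3, against -0.11, -0.09 and -0.60 in untreated replicates 1, 2 and 3. All TGF-β1 arrays lay above all untreated arrays, with a difference of 0.60 log2 units (SE 0.11, limma adjusted p = 0.0169). Without replicate 2, USP2 had 0.56 and no longer passed (adjusted p = 0.0942). Probe sets of casein kinase 1 genes, whose products mark PER proteins for breakdown, did not pass, the nearest being one of 4 for CSNK1D, with 0.34 log2 units (adjusted p = 0.111).

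Among 12 clock output and clock-controlled genes, 8 were measured by 15 probe sets, of which 1 rose, 2 fell and 12 did not pass (median -0.09 log2 units), beside 2.44% higher and 3.46% lower over all probe sets. Both that fell belong to HLF, a PAR bZIP factor that carries clock signals to its targets. On its probe set b HLF had -0.42, -0.25 and -0.47 in TGF-β1 replicates 1, 2 and 3, against 0.25, 0.66 and 0.50 in untreated replicates 1, 2 and 3. The groups did not overlap, and the difference was -0.85 log2 units (SE 0.11, limma adjusted p = 0.00426). On its probe set a the pair differences were -0.64, -0.48 and -0.88 and the mean difference -0.67 log2 units (SE 0.12, adjusted p = 0.0138, and 0.0501 without replicate 1), but the groups overlapped. NFIL3, which encodes a repressor that competes with HLF for the same sites, did not pass, with -0.03 and -0.19 log2 units (adjusted p = 0.941 and 0.377). KLF10, a TGF-β-induced factor that is also clock-controlled, rose on 1 of 2 probe sets by 0.75 log2 units (adjusted p = 0.0350), and the call was lost without replicate 1 or 2 (0.0676 and 0.143) and after quantile normalization (0.0858). Its other probe set had 0.24 (adjusted p = 0.259).

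Since BHLHE40 is also a target of the hypoxia-inducible factor HIF-1, 18 HIF targets were listed, of which 15 were measured by 23 probe sets. Of these 3 rose, 2 fell and 18 did not pass, with a median of 0.07 log2 units, beside 2.44% higher and 3.46% lower and a median of 0.01 over all probe sets. The probe sets that rose belong to SLC2A1, a glucose transporter (1.76 log2 units, SE 0.27, adjusted p = 0.00735), and VEGFA, an angiogenic growth factor (1.28 and 1.19 log2 units, adjusted p = 0.00232 and 0.00452). Those that fell belong to the peptide hormone gene ADM (-0.70, adjusted p = 0.0113) and, on 1 of 3 probe sets, LDHA, a lactate dehydrogenase (-0.74, adjusted p = 0.0288). Neither ADM nor LDHA passed without replicate 2 (0.0690 and 0.129) or after quantile normalization (0.0855 and 0.106). Under both of these settings there were still 3 higher calls and 0 lower ones. Among the 18 probe sets that did not pass were the 3 of BNIP3, a mitophagy receptor (0.65, 0.21 and 0.51 log2 units, limma adjusted p = 0.161, 0.312 and 0.283). On each of them replicate 3 had the largest difference (1.51, 0.28 and 1.39). BNIP3L was lower in all 3 replicates but did not pass (-0.25, adjusted p = 0.247). Nor did EGLN3, an oxygen-sensing prolyl hydroxylase (0.50, adjusted p = 0.0888), or the glycolytic enzymes PGK1 (0.06) and ENO1 (-0.08).

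Of 10 genes that respond quickly to serum, cyclic AMP or glucocorticoids, signals known to reset clocks, 9 were measured by 14 probe sets, of which 3 rose, 1 fell and 10 did not pass (median 0.10 log2 units), beside 2.44% higher and 3.46% lower over all probe sets. FOS rose on both probe sets (0.56 and 0.57 log2 units, adjusted p = 0.0438 and 0.0303), the kinase gene SGK1 on 1 of 3 (0.58, adjusted p = 0.0321), and the zinc finger gene ZBTB16 fell (-1.27, adjusted p = 0.0154). Calls for FOS and SGK1 were lost without replicate 1 (adjusted p = 0.238 and 0.154 for FOS, 0.179 for SGK1) or replicate 2 (0.101, 0.157 and 0.137), and that for ZBTB16 without replicate 2 (0.122). All 4 were also lost after quantile normalization (0.116 and 0.0624 for FOS, 0.0593 for SGK1, 0.103 for ZBTB16), and that of 1 FOS probe set with each array at a median of 0 (0.0538).

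**Figure D4:**
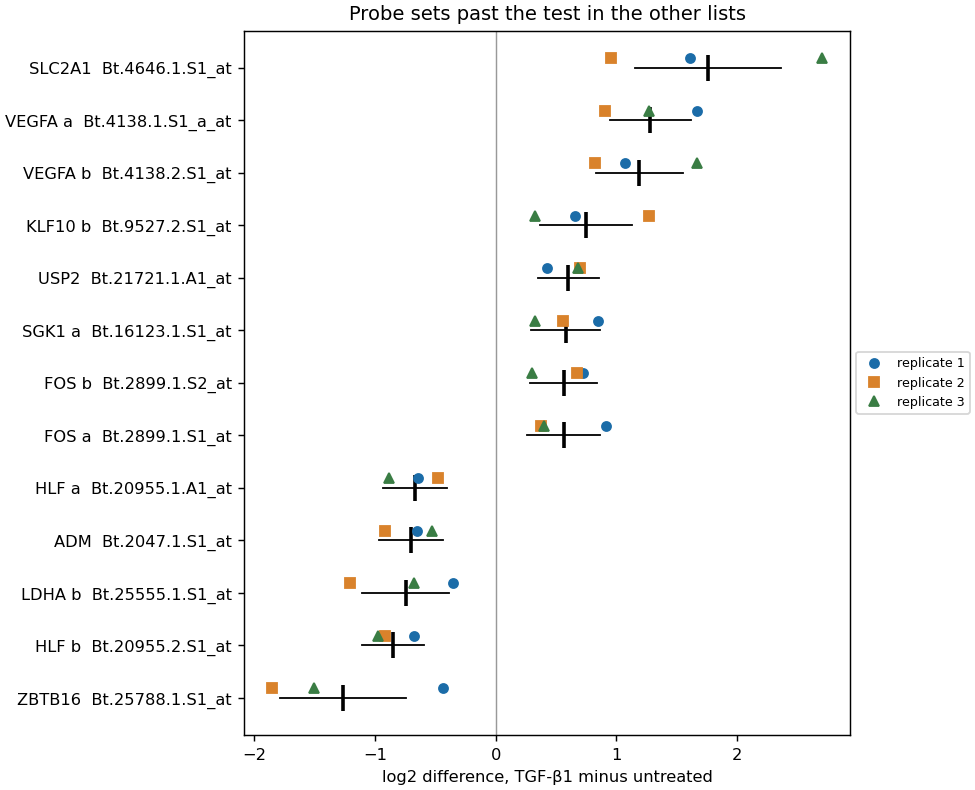
Log2 difference, TGF-β1 minus untreated (x axis), of the 13 probe sets past the test in the lists of core factors, modifying enzymes, outputs, HIF targets and rapidly responding genes, in each replicate (coloured symbols), with limma's estimate (tick) and its 95% interval (line). SLC2A1 and VEGFA lie highest, and both HLF probe sets lie below 0 in all 3 replicates.

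The genes whose mean profile over the 6 arrays was most like that of BHLHE40, by Pearson's r over 9155 genes, were TSPAN6 (r = 0.998), SLC2A1 (0.993), ADH1C (0.986), PRNP (0.984) and PCK1 (0.979). The 6 arrays are 3 pairs and replicate 3 stands apart in them, so these correlations are a description. As gene means in the paired fit, TSPAN6 (0.85 log2 units, limma adjusted p = 0.0307) and SLC2A1 (1.76, adjusted p = 0.0172) rose. ADH1C (0.06, adjusted p = 0.753), PRNP (0.34, adjusted p = 0.0759) and PCK1 (0.17, adjusted p = 0.313) did not pass.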

How the data were processed

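RNA of 3 TGF-β1 and 3 untreated cultures was hybridised to Affymetrix arrays. The authors subtracted background and normalized with Robust Multichip Average in GeneSpring (version not given in the sources used here), and the deposited log2 values are centred on each probe set's median (largest absolute median 5e-07), so a filter on low signal was not possible. Of 24128 probe sets, 112 controls were left out. Symbols came from the platform annotation (13292 probe sets with 1, 86 with several, 10638 with none), and 13263 were updated through their Entrez ID.

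Tests (2-sided) of TGF-β1 minus untreated used lmFit and eBayes of limma 3.58.1 in R 4.3.3, Benjamini-Hochberg adjusted over 24016 probe sets at 0.05, and the replicate number entered the model (the paired fit). Each cow's cells were grown in both conditions in the study, while the labels do not name the cow. Deviations from the group means of same-numbered arrays correlated with r = 0.740, 0.694 and 0.845 (-0.683 to 0.185 between other numbers). With 3 arrays per group precision is limited, and an exact permutation test of 1 gene could not go below p = 0.25 within 3 pairs, or 0.1 on the groups alone. No 2 arrays were copies (at most 56 identical values).

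Members and lists were chosen with earlier results of these data known. All clock probe sets are named, and of other lists every gene that passed where 5 or fewer did, otherwise the 4 with the smallest p (TGF-β targets). RORA, TIMELESS, CSNK1D, NFIL3, FKBP5, DUSP1, CRISPLD2, PGK1, ENO1, BNIP3, BNIP3L and EGLN3 were named after their values were seen. The code of the fit was run on simulated data with independent normal noise of limma's own spread. Since limma's assumptions hold there by design, it cannot show whether they hold for these arrays. Figures were drawn with matplotlib 3.10.9. Alternatives were the groups alone, leaving out each replicate, quantile and median scaling, the methods' t-test, robust eBayes and gene means.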

Additional observations from a re-analysis of the deposited data

How the results depend on the processing

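In the paired fit, both BHLHE40 probe sets kept their direction and call without any 1 replicate (0.91 to 1.47 and 0.68 to 1.24 log2 units), after quantile or median scaling, with robust eBayes and as a gene mean (1.08 log2 units, adjusted p = 0.0236, so 1 call in place of 2). With no replicate block (limma on the groups alone) and with the methods' t-test, the estimates of 1.17 and 0.99 log2 units did not pass, and 0 probe sets were called in either direction in the clock list, in all other lists and over all probe sets. PER2 turned sign without replicate 2 (0.042 and 0.11 log2 units; range -0.16 to 0.042 and -0.26 to 0.11 without 1 replicate), and neither passed under any setting. Neither NR1D1 nor CRY1 passed under any of the 9 alternatives. Without 1 replicate NR1D1 had -0.21 to -0.0045 log2 units, the value nearest 0 being that without replicate 3, and CRY1 had 0.042 (without replicate 2) to 0.22 (without replicate 3).

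Over all probe sets, leaving out 1 replicate gave 272 to 590 higher and 267 to 747 lower, quantile normalization 377 and 443, and gene means 205 and 419, over fewer features. Leaving out 1 replicate gave 0 to 1 higher for the modifying enzymes, 0 to 1 higher and 1 to 2 lower for outputs, 0 to 2 lower for HIF targets, and 0 to 3 higher and 0 to 1 lower for rapidly responding genes. Quantile normalization left 0 higher outputs, 0 lower HIF targets, and 0 higher and 0 lower rapidly responding genes. Gene means gave 0 higher and 1 lower output, 1 lower HIF target and 1 higher rapidly responding gene. The cause of these changes was not tested under any setting. A filter on low signal was not run, since the centred values keep no level, and the 3 arrays per group limit the precision of the differences in PER2, NR1D1 and CRY1, whose 95% intervals include 0.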
